A study of Mus musculus with 8 samples.

Results

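The inflammatory caspases and the genes that act with them in pyroptosis were examined in whole prostate of *Olfm4*-knockout mice. The family comprised 10 genes, namely *Casp4*, *Casp1*, *Casp12*, *Gsdmd*, *Nlrp3*, *Pycard*, *Il18*, *Il1b*, *Il1a* and *Aim2*. All probe sets annotated to one of these symbols alone were taken, which gave 13 probe sets of 45037, for 10 of the 18193 genes that the arrays measure. The family was selected on the lower *Casp4* values of knockout prostate in this same comparison. The difference in *Casp4* is therefore given as a description, with no test, and it is not a finding of this comparison. The other 9 genes were taken for their place in the pathway and not for their own values, but they come from the same comparison.

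The knockout mice were *Olfm4*(−/−) and the wild-type mice *Olfm4*(+/+), all 3 months of age and untreated, with 4 arrays of each genotype on RNA from individual mice. Both genotypes had a mixed background, to which 129/SV and Black Swiss (from the National Institutes of Health) contributed 50% each, and the line was maintained by crossing *Olfm4*(+/−) mice. The labels call the material prostate, and the design text specifies whole prostate tissue. The array names carry 2 dates, called array days here without saying which step was done on them, and each held 2 knockout and 2 wild-type arrays. The authors' RMA values on the log2 scale were compared between genotypes with limma, with array day as a second term.

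Pyroptosis is a lytic form of cell death that releases inflammatory cytokines. In the canonical route, a sensor such as NLRP3 or AIM2 recruits the adaptor ASC, the product of *Pycard*, and ASC activates caspase-1. Caspase-1 matures interleukin-1β and interleukin-18 and cleaves gasdermin D, whose fragment forms pores in the plasma membrane. In the noncanonical route of the mouse, caspase-11, the product of *Casp4*, is activated by cytosolic lipopolysaccharide (LPS) and cleaves gasdermin D directly. *Casp1*, *Casp4* and *Casp12* are adjacent genes on mouse chromosome 9.

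*Olfm4*, the deleted gene, had log2 values of 3.09, 3.00, 3.25 and 3.09 on the knockout arrays, against 10.32, 10.23, 10.74 and 10.65 on the wild-type arrays, as labelled. Markers of luminal prostate epithelium had mean log2 values of 13.58 to 13.65 in knockout and 13.56 to 13.64 in wild-type prostate. Knockout array 1 and wild-type array 1 stood apart from the others, since the mean log2 value of 6 seminal vesicle markers was 13.81 and 14.15 on these arrays and between 7.88 and 10.04 on the remaining 6. Array medians lay between 6.03 and 6.09.

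The promoters of the 3 adjacent caspase genes are shown because *Casp4* differed between genotypes while its neighbours on either side were not called. Each window holds the 250 bases before and the 50 bases after an annotated start, 5′ to 3′ on the plus strand, from RefSeq on GRCm38.p6, which is C57BL/6J sequence and not that of the mice studied. The windows are chr9:5308599-5308898 for *Casp4*, chr9:5298267-5298566 for *Casp1* and chr9:5345226-5345525 for *Casp12*. Capitals mark matches to the outline of an NF-kB site, GGG and CC with 5 bases of any kind between them, and to TTCNNNGAA, the outline of a STAT site called GAS, each searched on both strands with overlapping matches merged.
Casp4: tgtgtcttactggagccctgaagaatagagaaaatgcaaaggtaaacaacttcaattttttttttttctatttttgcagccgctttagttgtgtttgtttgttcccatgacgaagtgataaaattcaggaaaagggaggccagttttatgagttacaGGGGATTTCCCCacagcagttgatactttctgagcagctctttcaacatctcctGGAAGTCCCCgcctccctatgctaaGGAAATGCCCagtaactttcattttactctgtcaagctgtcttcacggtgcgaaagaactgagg
Casp1: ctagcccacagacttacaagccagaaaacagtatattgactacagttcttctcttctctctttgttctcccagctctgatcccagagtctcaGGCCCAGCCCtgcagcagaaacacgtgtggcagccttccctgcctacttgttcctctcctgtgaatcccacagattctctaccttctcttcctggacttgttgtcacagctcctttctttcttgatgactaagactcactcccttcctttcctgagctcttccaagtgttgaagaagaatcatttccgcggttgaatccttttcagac
Casp12: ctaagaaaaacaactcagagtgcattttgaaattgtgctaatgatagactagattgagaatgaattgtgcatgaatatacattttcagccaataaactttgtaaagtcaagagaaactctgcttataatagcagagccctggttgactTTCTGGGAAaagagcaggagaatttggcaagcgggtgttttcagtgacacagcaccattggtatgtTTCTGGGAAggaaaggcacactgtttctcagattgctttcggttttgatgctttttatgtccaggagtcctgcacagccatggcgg
The *Casp4* window held 3 separate NF-kB stretches, that of *Casp1* held 1, and that of *Casp12* held none but 2 GAS stretches. Of 32851 promoter windows of this length, 50.8% held the NF-kB letters at least once and 8.43% in 3 or more stretches, while 8.30% held the GAS letters and 0.457% held them in 2 or more stretches. Neither the core of the interferon element, GAAA repeated after 2 bases of any kind (in 3.44% of windows), nor the letters TATAAA (in 13.6%) were in these 3 windows. A match of letters is a description and was not tested for binding.

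*Casp4* was represented by 1 probe set. Its log2 values were 4.68, 5.06, 5.16 and 4.84 on the knockout arrays, against 7.46, 7.67, 7.18 and 7.80 on the wild-type arrays. The 4 knockout values all lay below the 4 wild-type values, as at 5.03% of all probe sets, and the gap between the groups was 2.03. The mean was 4.93 ± 0.21 in knockout prostate and 7.53 ± 0.27 in wild-type prostate (SD, n = 4 each). The log2 fold change was -2.60 (standard error 0.15, 95% interval -2.95 to -2.24), which is a value 6.05-fold lower in knockout prostate. The interval takes no account of the choice of the family on these values, and nothing is read from it. The log2 fold change was -2.63 on array day 1 and -2.56 on array day 2, and -2.59 without knockout array 1 and wild-type array 1. No detection calls were used here, so whether the knockout values lie above background is not known, and the fold is then an understatement if they do not.

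Of the 13 probe sets, *Casp4* was the only one called at an adjusted p under 0.05, over a background of 0.111% of all 45037 probe sets (0.0511% called and lower). The comparison was used to choose the family, so nothing is read from this count. Of the 12 other probe sets, none was called by limma (adjusted p from 0.286 to 0.943) or by an analysis of variance without moderation or array day, and 1 had an unadjusted p under 0.05 in either test, where 12.8% of all probe sets did in limma. At their brightest probe sets, 5 of the 9 other genes had a lower and 4 a higher mean in knockout prostate, where 46.2% of all genes had a higher mean. Their median log2 fold change was -0.018, beside -0.015 over all genes.

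**Figure D1:**
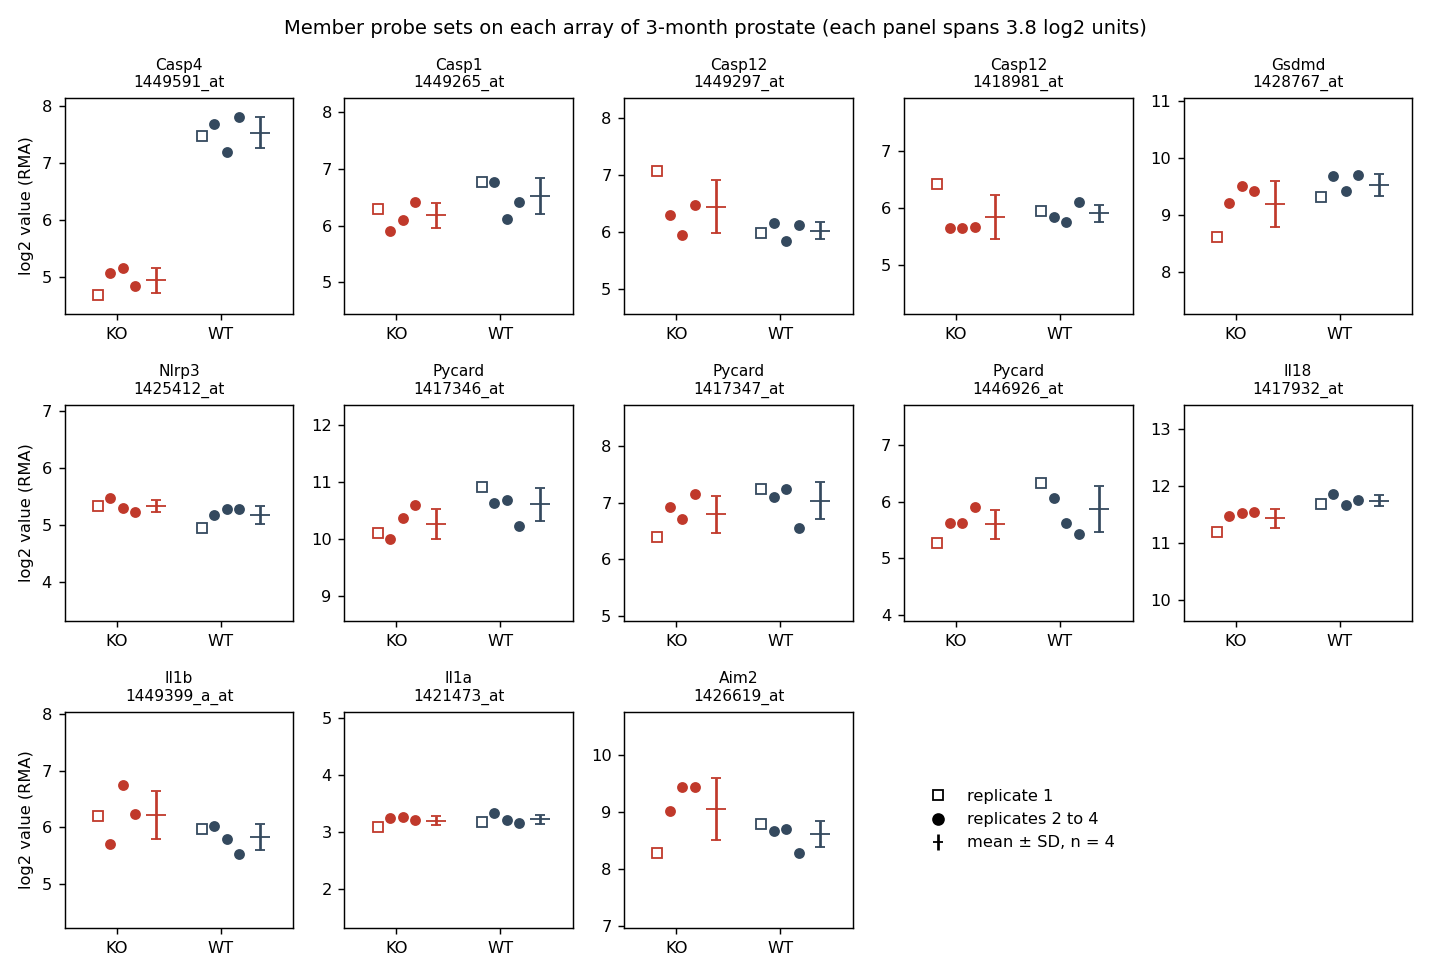
Log2 value (RMA) of each of the 13 member probe sets on each array, knockout (KO, red) left and wild type (WT, blue-grey) right, with bars for the mean ± SD of 4 arrays and open squares for replicate 1 of either genotype. *Casp4* is the probe set with a wide gap between genotypes, 4.68 to 5.16 in KO and 7.18 to 7.80 in WT, and *Il18* is the other one without overlap.

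The other 2 caspase genes of the cluster were not called. *Casp1*, which encodes the protease of the canonical inflammasome, had log2 values of 6.29, 5.91, 6.10 and 6.42 in knockout, against 6.77, 6.77, 6.12 and 6.41 in wild-type prostate. The groups overlapped, with 2 knockout arrays below all wild-type arrays. The log2 fold change was -0.34 (95% interval -0.74 to 0.064, adjusted p = 0.469 from limma), and it was -0.33 and -0.34 on the 2 array days. The interval leaves room for a fall of up to 0.74 on the log2 scale.

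*Casp12*, which encodes a caspase of the same subfamily that has been linked to endoplasmic reticulum stress, had 2 probe sets that differed in sign. The brighter one had log2 values of 7.07, 6.29, 5.93 and 6.48 in knockout, against 5.97, 6.16, 5.83 and 6.12 in wild-type prostate, and its log2 fold change was 0.42 (95% interval -0.080 to 0.92, adjusted p = 0.469 from limma). The dimmer one had 6.43, 5.66, 5.65 and 5.68 in knockout, against 5.95, 5.86, 5.76 and 6.11 in wild-type prostate, and its log2 fold change was -0.063 (adjusted p = 0.921). Knockout array 1 was the highest of the 8 at both probe sets. With array 1 of both genotypes left out, the brighter probe set had a log2 fold change of 0.19 and the dimmer one of -0.30 (adjusted p = 0.693 and 0.319).

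**Figure D2:**
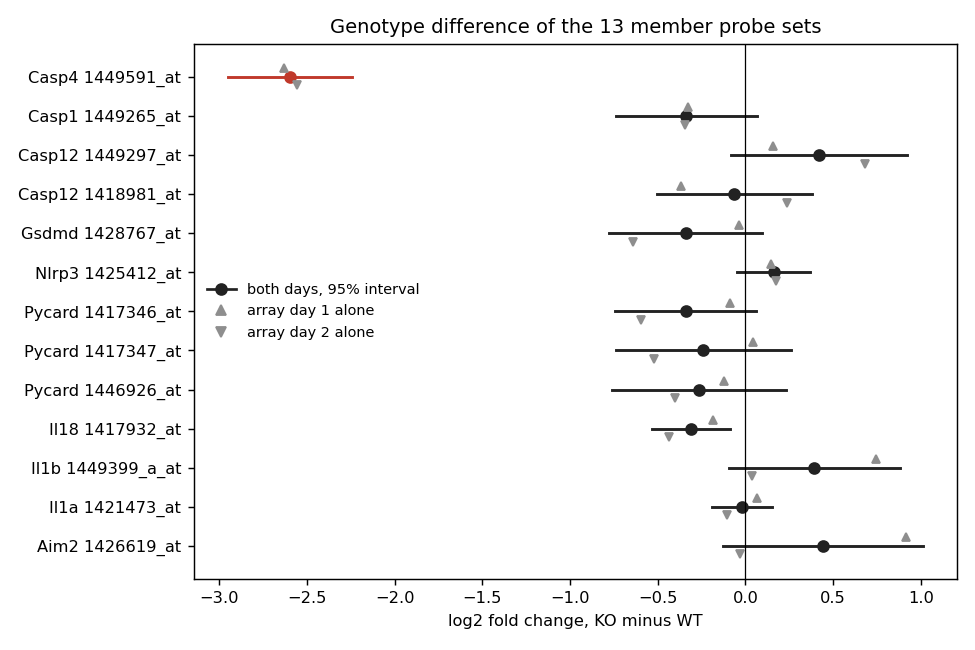
Log2 fold change, KO minus WT, of the 13 member probe sets, with circles and lines for the estimate over both array days and its 95% interval, and triangles for each array day alone. *Casp4*, whose values chose the family, lies at -2.60, and all other estimates lie between -0.34 and 0.44.

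Among the sensors and the adaptor, *Aim2*, which encodes a receptor of cytosolic DNA, had log2 values of 8.28, 9.02, 9.44 and 9.44 in knockout, against 8.78, 8.66, 8.70 and 8.28 in wild-type prostate. The log2 fold change was 0.44 (95% interval -0.13 to 1.01, adjusted p = 0.501 from limma). Of the knockout arrays, 3 lay above all wild-type arrays, and array 1 lay near the lowest of them. The difference was 0.91 on array day 1 and -0.029 on array day 2, and 0.75 once array 1 of both genotypes was left out (adjusted p = 0.234). *Nlrp3*, the gene of the best-studied inflammasome sensor, had values of 5.33, 5.47, 5.30 and 5.22 in knockout, against 4.95, 5.18, 5.27 and 5.28 in wild-type prostate, with a log2 fold change of 0.16 (95% interval -0.046 to 0.37, adjusted p = 0.501).

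*Pycard*, which encodes the adaptor ASC, had 3 probe sets, all with a lower mean in knockout prostate and none called. The brightest had log2 values of 10.11, 10.002, 10.36 and 10.60 in knockout, against 10.91, 10.62, 10.68 and 10.22 in wild-type prostate, with 2 knockout arrays below all wild-type arrays. Its log2 fold change was -0.34 (95% interval -0.74 to 0.061, adjusted p = 0.465 from limma), and those of the others were -0.24 and -0.26. On array day 2 the 3 differences lay between -0.60 and -0.40, and on array day 1 between -0.12 and 0.041. Without knockout array 1 and wild-type array 1 they were -0.20, 0.065 and 0.046.

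*Gsdmd*, the gene of the pore-forming substrate gasdermin D, had log2 values of 8.60, 9.20, 9.50 and 9.42 in knockout, against 9.30, 9.68, 9.41 and 9.70 in wild-type prostate. The groups overlapped, and knockout array 1 was the lowest of the 8. The log2 fold change was -0.34 (95% interval -0.78 to 0.096, adjusted p = 0.50 from limma). It was -0.039 among arrays of day 1 and -0.64 among those of day 2. With array 1 of both genotypes left out it was -0.29.

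Of the cytokines, *Il18*, which is made as a precursor by many epithelia, was the only other member whose genotypes did not overlap. It also lies on chromosome 9, far from the caspase cluster. Its log2 values were 11.19, 11.48, 11.54 and 11.54 in knockout, against 11.69, 11.87, 11.68 and 11.75 in wild-type prostate. Groups without overlap were found at 8.72% of all probe sets. The mean was 11.43 ± 0.17 in knockout prostate and 11.75 ± 0.089 in wild-type prostate (SD, n = 4 each), and the log2 fold change was -0.31 (standard error 0.096, 95% interval -0.54 to -0.086). It was not called (adjusted p = 0.286 from limma). The difference was -0.18 and -0.44 on the 2 array days, and -0.25 once array 1 of both genotypes was left out (adjusted p = 0.333).

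*Il1b*, the gene of interleukin-1β, had log2 values of 6.20, 5.72, 6.74 and 6.24 in knockout, against 5.97, 6.03, 5.80 and 5.53 in wild-type prostate. Of the knockout arrays, 3 lay above all wild-type arrays, and the log2 fold change was 0.39 (95% interval -0.096 to 0.88, adjusted p = 0.488 from limma), being 0.75 among arrays of day 1 and 0.038 among those of day 2. *Il1a*, which encodes the alarmin interleukin-1α, had values between 3.09 and 3.26 in knockout and between 3.15 and 3.34 in wild-type prostate, and its log2 fold change was -0.018 (95% interval -0.19 to 0.15).

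Many of these genes are expressed by leukocytes, and in whole tissue fewer cells of a type and less RNA per cell cannot be told apart. The 12 macrophage markers had mean log2 values of 8.91 to 9.46 on the knockout arrays and 8.96 to 9.40 on the wild-type arrays, and 5 had a higher and 7 a lower mean. All 12 were measured and none was called. The 7 measured neutrophil markers, of 8 listed, had mean log2 values of 5.20, 4.54, 4.48 and 4.91 on the knockout arrays, against 4.43 to 4.50 on the wild-type arrays, and 5 had a higher mean. *S100a9*, picked from these markers after its values were seen, had 7.28 and 6.97 on knockout arrays 1 and 4 and at most 5.50 on the others. Its log2 fold change was 1.22, the largest of the list. *S100a8* had 0.68, with 6.10 on knockout array 4 and 6.08 on wild-type array 1. *Mpo*, *Csf3r* and *Cxcr2* had log2 fold changes of 0.28, 0.11 and 0.088, and *Ngp* and *Camp* of -0.14 and -0.056. On knockout arrays 1 to 4, *Il1b* had log2 values of 6.20, 5.72, 6.74 and 6.24, the highest being on array 3, where the neutrophil mean was lowest. The relation of *Il1b* to the neutrophil means was not tested. Of 6 measured T and NK cell markers, of 7 listed, 4 had a lower mean in knockout tissue. These were the T cell genes *Cd3e*, *Cd3d*, *Cd3g* and *Cd8a*. *Cd4* had a log2 fold change of 0.0026, and *Ncr1*, the only NK cell marker measured, of 0.13. The 6 markers had mean log2 values of 5.53 to 6.25 in knockout and 5.88 to 6.37 in wild-type prostate. Among the lower ones, 3 had an unadjusted p under 0.05 in limma, where 8.49% of all genes were lower at this p. With array 1 of both genotypes left out, 0 of the 6 were. The 3 measured B cell markers, of 4 listed, all had a lower mean, with mean log2 values of 5.27, 5.09, 4.82 and 4.98 on the knockout arrays, against 6.35, 6.30, 5.27 and 4.90 on the wild-type arrays, so that wild-type arrays 1 and 2 were high. The 3 measured dendritic cell markers, of 4 listed, also had lower means (4.89 to 5.05 in knockout and 4.97 to 5.19 in wild-type prostate), and *Ptprc*, the pan-leukocyte gene, had a log2 fold change of -0.20 (adjusted p = 0.744). The array means of the genotypes overlapped for each of these lists, and their part in the differences above was not tested.

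The genes around *Casp4* on chromosome 9 were examined next, because alleles of linked genes are inherited together. Earlier results of these same data had already shown called genes near each other on chromosomes, so the counts below are a description. Gene order and distance follow RefSeq on GRCm38.p6. Within 5 Mb of *Casp4*, 34 other genes were measured, and 1 of them was called at its brightest probe set, where 0.17% of all genes were. This was *Pdgfd*, which encodes the growth factor PDGF-D and lies 0.832 Mb from *Casp4*, the next measured gene after *Casp12*. It had log2 values of 7.63, 9.10, 8.21 and 8.55 in knockout, against 10.88, 11.08, 11.13 and 11.02 in wild-type prostate, and its log2 fold change was -2.66 with a standard error of 0.28 (adjusted p = 0.0295 from limma). A second *Pdgfd* probe set had 4.30, 4.72, 4.95 and 4.66 in knockout, against 6.93, 6.60, 6.56 and 6.29 in wild-type prostate (log2 fold change -1.93, adjusted p = 0.0125). At another probe set, which was not called, the log2 fold change was -0.36 (adjusted p = 0.269). The genotypes did not overlap at any of the 3 probe sets. At the brightest probe set the call was lost without knockout array 3 or 4 or any 1 of the 4 wild-type arrays (adjusted p from 0.0826 to 0.155), and in the unmoderated test without array day (adjusted p = 0.127), while the log2 fold change stayed between -2.94 and -2.35 with 1 array left out. Knockout array 1 had the lowest value, and with array 1 of both genotypes left out the log2 fold change was -2.33 (adjusted p = 0.0236).

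At an unadjusted p under 0.01, 7 of the 34 genes (20.6%) differed between genotypes, where 4.14% of all genes did. The share depended on the distance taken, with 1 of 14 other genes (7.14%) within 2 Mb and 7 of 59 (11.9%) within 10 Mb. At an unadjusted p under 0.05 it was 13 of 34 (38.2%), with 9 higher and 4 lower, where 14.8% of all genes passed. Neighbouring genes are not independent of each other, and no set test was made. The count at p under 0.01 was between 5 and 8 when any 1 array was left out, and 6 without knockout array 1 and wild-type array 1, beside 4.20% of all genes. Of the 7, 2 were lower and 5 higher in knockout prostate.

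Except for *Pdgfd*, these 7 genes lay between 2.36 and 3.66 Mb from *Casp4*, on the same side as *Pdgfd*, and none was called. *Arhgap42* had log2 values of 9.56, 9.39, 9.71 and 9.96 in knockout, against 10.52, 10.85, 10.55 and 10.83 in wild-type prostate, without overlap (log2 fold change -1.03, standard error 0.13, adjusted p = 0.0591 from limma). *Trpc6*, a cation channel gene, and *Cfap300*, a gene of cilia and flagella, had higher means by 1.23 and 1.06 on the log2 scale (adjusted p = 0.161 and 0.0812). *Pgr*, the progesterone receptor gene, *Tmem123* and *Mmp7*, which encodes the metalloproteinase matrilysin, had higher means by 0.80, 0.51 and 0.285 (adjusted p from 0.206 to 0.263). On the other side of the cluster, *Gria4*, a glutamate receptor gene and the nearest measured gene, had a log2 fold change of 0.54 (adjusted p = 0.399). Knockout array 1 had 7.75 at this probe set, against 6.66 to 6.89 on the other knockout arrays. The other *Gria4* probe sets had log2 fold changes of -0.042 and 0.030.

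**Figure D3:**
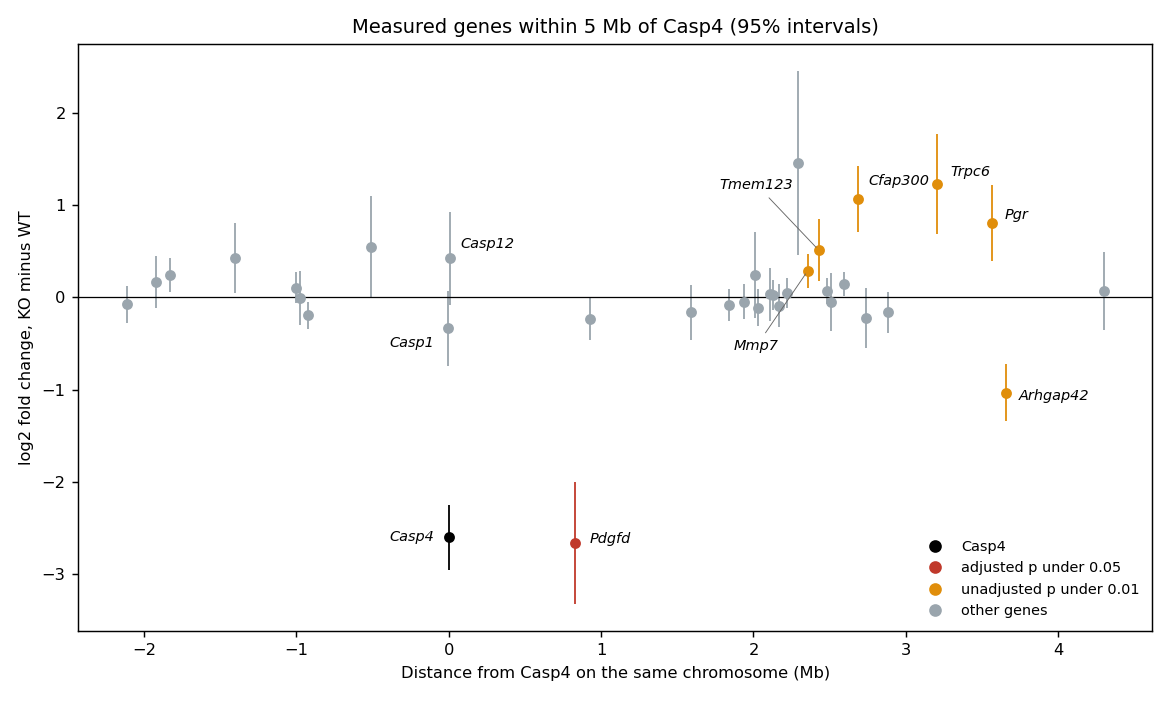
Log2 fold change, KO minus WT, of the 35 measured genes within 5 Mb of *Casp4*, including *Casp4* itself, at each gene's brightest probe set, against distance from *Casp4* in Mb, with lines for 95% intervals. *Casp4* (black) and *Pdgfd* (red, called) lie at -2.60 and -2.66, the 6 orange genes had an unadjusted p under 0.01, and *Casp1* and *Casp12* lie at -0.34 and 0.42 beside *Casp4*.

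Mice of 129 substrains are known to carry a variant of *Casp4* that prevents production of functional caspase-11, and 129/SV makes up part of the background of both genotypes. The labels give no genotype at the caspase cluster for any mouse. An effect of *Olfm4* loss on *Casp4* and a difference in the alleles that the 2 groups carry on chromosome 9 therefore cannot be told apart in this design.

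The genes whose profile over the 8 arrays was most like that of *Casp4* were found by the mean absolute difference between log2 values, after each gene was centred on its own mean. This is a description and has no test, since *Casp4* was chosen for this pattern. Among 18192 genes, the nearest was *Pdgfd* (mean absolute difference 0.32), followed by *Adam28* (0.34), *Slc25a30* (0.37), *Adamdec1* (0.53) and *Ralgps2* (0.54). *Pdgfd* lies on the same chromosome as *Casp4*. *Adam28*, *Slc25a30* and *Adamdec1* lie on chromosome 14, as does *Olfm4*, and *Ralgps2* lies on chromosome 1. *Ralgps2* had 9.40, 9.23, 9.42 and 11.19 on the knockout arrays, against 11.59, 11.91, 11.32 and 11.40 on the wild-type arrays, so that knockout array 4 was close to wild type, whereas *Casp4* had no such array. Of the other members, the nearest to *Casp4* was *Pycard*, at rank 816 (mean absolute difference 1.13).

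**Figure D4:**
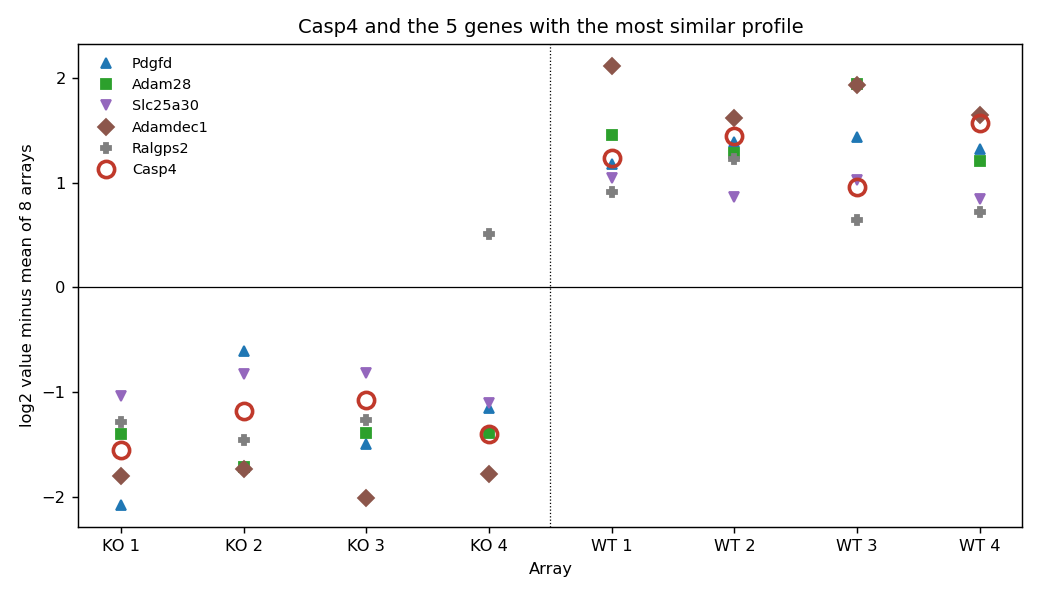
Log2 value minus the mean of 8 arrays, on the 4 KO arrays (left of the dotted line) and the 4 WT arrays (right), for *Casp4* (open red circles) and the 5 genes with the smallest mean absolute difference from it. All 6 genes are low on KO arrays 1 to 3 and high on the WT arrays, and *Ralgps2* is high on KO array 4 as well.

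The rest of the pathway was covered by 6 lists with 104 symbols in all, of which 83 matched a gene measured at a probe set of its own. None of the 83 was called in limma or in the unmoderated test without array day, and their median log2 fold change was -0.051. At an unadjusted p under 0.05 in limma, 3 were higher and 10 lower in knockout prostate, together 13 of 83, beside 14.8% of all genes (6.27% higher and 8.49% lower).

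Of the lower genes, 7 belonged to the 26 measured genes of LPS and interferon inputs, which prime or assist the noncanonical route, and none of that list was higher at this p. Of the 26, 4 were lower at this p with array 1 of both genotypes left out, beside 8.56% of all genes. The list had 8 genes with a higher and 18 with a lower mean, and a median log2 fold change of -0.086. Its mean log2 value was 8.93, 8.83, 8.96 and 8.99 on the knockout arrays, against 9.18, 9.11, 8.98 and 9.02 on the wild-type arrays. Wild-type arrays 1 and 2, the highest, were also the arrays with the highest B cell and T and NK cell marker means, whose part in these values was not tested. *Irf7*, an interferon regulatory factor gene, had log2 values of 7.598, 8.11, 8.57 and 8.21 in knockout, against 9.21, 9.20, 8.90 and 8.62 in wild-type prostate, without overlap (log2 fold change -0.86, standard error 0.21, adjusted p = 0.232 from limma). *Gbp6* and *Irgm2*, which encode interferon-inducible GTPases, were also without overlap, and their log2 fold changes were -0.46 and -0.56 (adjusted p = 0.237 and 0.262). *Tlr4* and *Cd14*, which encode the cell-surface receptor of LPS and its co-receptor, differed by 0.14 and 0.23 on that scale (adjusted p = 0.720 and 0.667).

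Of 19 measured inflammasome sensors and regulators, none had an unadjusted p under 0.05, and the 3 with the smallest p were *Panx1* (-0.28), *Nek7* (0.096) and *Nlrp10* (-0.20). Among 7 gasdermins and genes of membrane rupture and repair, *Chmp3*, a membrane-repair gene, had a log2 fold change of -0.27, *Gsdma2* had 0.22 and *Gsdma* -0.099 (adjusted p from 0.318 to 0.554). *Ninj1*, which encodes the protein that ruptures the membrane after pore formation, had -0.070 (adjusted p = 0.749).

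Of 7 other caspase genes and their regulators, *Cflar*, an inhibitor of caspase-8, had a log2 fold change of 0.22 (adjusted p = 0.354 from limma), *Casp8* -0.13 and *Casp2* 0.16. Of 5 caspase inhibitors, *Serpinb1a*, whose protein restrains inflammatory caspases, had log2 values of 11.65, 11.46, 12.02 and 12.18 in knockout, against 12.17, 12.56, 12.42 and 12.65 in wild-type prostate (log2 fold change -0.62, standard error 0.16, adjusted p = 0.246). The groups overlapped by 1 knockout array, and a second probe set had -0.51. *Xiap* and *Serpinb9* both had 0.17 (adjusted p = 0.471 and 0.565).

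Of 19 genes of IL-1 family signalling, *Il1r2*, the decoy receptor of interleukin-1, had log2 values of 7.58, 6.92, 6.74 and 6.75 in knockout, against 9.19, 6.53, 9.47 and 9.88 in wild-type prostate. Wild-type array 2 was the lowest of the 8, so the groups overlapped, and the log2 fold change of -1.77 had a standard error of 0.68 (adjusted p = 0.349 from limma). *Il1f8* and *Il1f9*, interleukin-36 family genes, had 0.20 and -0.21 (adjusted p = 0.281 and 0.418). *Il18r1* and *Il18bp*, which encode a receptor subunit and the soluble inhibitor of interleukin-18, had -0.40 and 0.059 (adjusted p = 0.686 and 0.909).

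**Figure D5:**
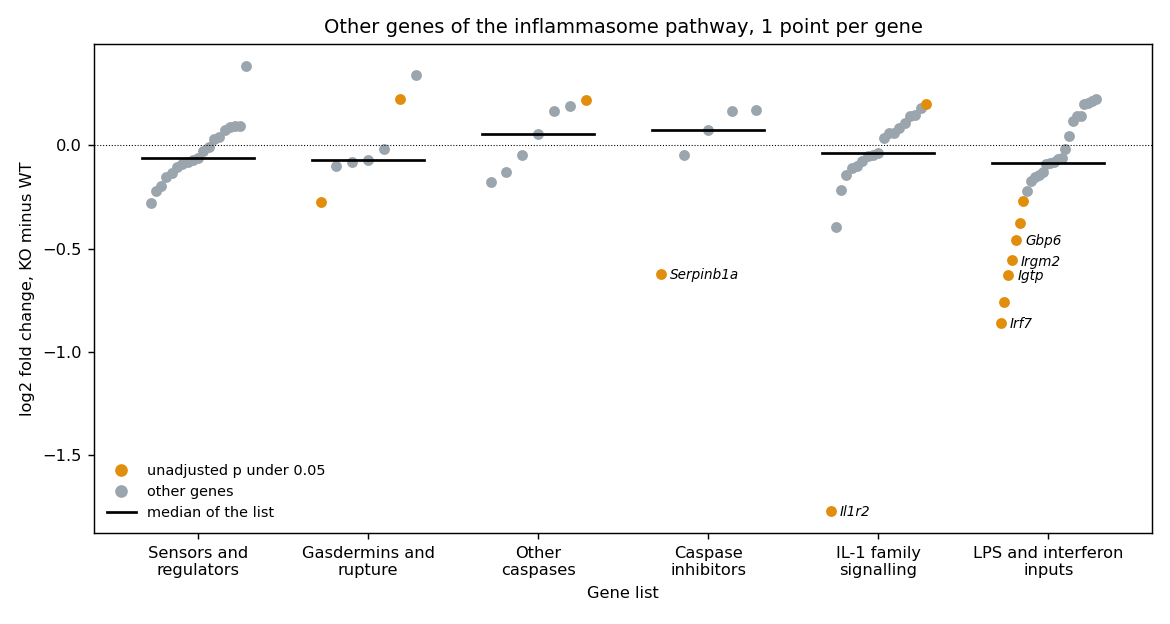
Log2 fold change, KO minus WT, of the measured genes of 6 other pathway lists, 1 point per gene at its brightest probe set, with a black bar at the median of each list. Orange points had an unadjusted p under 0.05 in limma, and none of the 83 genes was called. The 7 orange points of the LPS and interferon list all lie below 0.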

How the data were processed

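RNA from whole prostate was measured on the Affymetrix Mouse Genome arrays that the methods name, 8 in all. The authors deposited log2 values made with RMA, which subtracts background, quantile-normalizes arrays and summarises each probe set, and this can shrink differences of dim probe sets. RMA version: not given in the sources used here. Extraction differs between sources, since the labels name Trizol and the methods the RNeasy Plus Mini Kit. The number of mice differs as well, since the methods name more mice per genotype than the 4 arrays of each held here. A figure legend of the authors gives 4 or fewer mice per genotype for the arrays. Precision is limited by the number of arrays. Genotypes were compared in R 4.3.3 with limma 3.58.1, using lmFit and eBayes with array day as a term and a 2-sided test. The Benjamini-Hochberg adjustment ran over 45037 probe sets, with 64 control probe sets left out. The fit was tested on simulated data. A gene was represented by its brightest probe set. Annotation gave 34945 probe sets 1 symbol, 932 several and 9160 none, and 18032 of 18193 genes matched RefSeq (GRCm38.p6).

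Genes were named by rule: all members, genes within 5 Mb of *Casp4* that were called, had an unadjusted p under 0.01 or adjoin the cluster, up to 3 genes of each list with the smallest p besides called ones, the 5 genes most like *Casp4* and *Olfm4*. *Tlr4*, *Cd14*, *Ninj1*, *Il18r1*, *Il18bp*, *Igtp*, *Aasdhppt*, *Yap1*, *Ptprc* and the neutrophil and T and NK cell markers were named after their values were seen. The members, the lists and the look at genes near *Casp4* were chosen with earlier results of these data known. Alternatives were the fit without array day, an unmoderated ANOVA without array day (the methods name analysis of variance, not its terms), a replicate block, trended robust variance, array weights, median centring, quantile normalization, filters at mean log2 values of 5 and 7, single days, single arrays left out, both replicate 1 arrays left out, means over probe sets and other distances from *Casp4*.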

Additional observations from a re-analysis of the deposited data

Results flagged for a closer look

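Among 26 groups of 4 arrays (13 probe sets in 2 genotypes), 2 held an array far from the other 3, and chance alone sets apart about 1 group in 20. At the dimmer *Casp12* probe set, knockout array 1 had a log2 value of 6.43, and the nearest knockout array had 5.68. At *Il18*, knockout array 1 had 11.19, and the nearest knockout array had 11.48. Knockout array 1 is one of the arrays with abundant seminal vesicle transcripts (mean log2 value of the markers 13.81), whose part in these values was not tested.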

How the results depend on the processing

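The log2 fold change of *Casp4* lay between -2.70 and -2.51 in all 20 alternatives that kept its probe set. These values chose the family, so their stability supports nothing. No member was called (0 probe sets) on array day 1 alone, on array day 2 alone, or among probe sets with a mean log2 value of at least 7, a filter that removes *Casp4*. Over all 45037 probe sets, 50 were called, against 24 in ANOVA without array day, 4 on either array day alone, and between 17 and 43 with 1 array left out. With a replicate block in place of array day it was 20. Same-numbered arrays correlated at 0.34, 0.17, 0.043 and -0.0056 in their deviations from the genotype means, and 1 of the 4 knockout arrays correlated best with its own number, so the numbers were not taken to pair the mice, and the block changed no call among the members. The median of the 9 other members was -0.33 at the filter of 7, which keeps 4 of them, and moved by less than the spread between replicates in the other alternatives. The number of called genes within 5 Mb of *Casp4*, 2 with *Casp4* itself, was 1 in ANOVA, 0 on array day 1 and 0 on array day 2, and between 1 and 3 with 1 array left out, and it was 2 within 2 Mb and within 10 Mb. In fits of single probe sets, *Arhgap42* was called beside *Pdgfd* without array day, with trended robust variance and at the filter of 7. *Cfap300* was called beside *Pdgfd* with array weights, without knockout array 1, and without array 1 of both genotypes. With means over probe sets, the number of called genes within 5 Mb was 3. No gene of the other pathway lists was called in any of 21 alternatives. The counts at an unadjusted p under 0.01 near *Casp4* without single arrays, and with other tests (7 without array day or with the replicate block, 8 in ANOVA), were added after the data were seen, as were the counts of lower LPS and interferon genes (4, against 7 on all arrays) and of lower T and NK cell markers (0, against 3 on all arrays) without array 1 of both genotypes. No detection calls were used here, so low values such as those of *Il1a* and of *Casp4* in knockout prostate were not set against background.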
